A study of Mus musculus with 12 samples.

Results

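The comparison set immortalized mouse macrophages kept with lipopolysaccharide (LPS) for 120 min against the same cells kept with it for 60 min. Its members were the 3 samples titled for 120 min and the 3 titled for 60 min, 6 of the 12 samples of the series. Samples without LPS were not used. All 6 dishes carried the same macrophage line (IMM) and received LPS from Enzo at 100 ng/mL, so both groups were stimulated and differ by 60 min of further exposure. No genotype is given beyond the line, which stands for 1 immortalized culture and not for macrophages taken from separate mice. The series describes the 3 samples of each time as biological replicates and does not say whether they came from separate thaws or days. P values therefore measure the spread between these dishes. MiRNAs were counted with a NanoString nCounter panel of 626 probes, 566 of them for mouse miRNAs. Each miRNA first receives a ligated tag, and barcoded probes bound to it are then counted without amplification.

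MiRNAs are short RNAs that guide Argonaute proteins to messenger RNAs, mostly by pairing of the seed, the stretch from base 2 to base 8. LPS acts through Toll-like receptor 4 and switches on NF-kB, which drives transcription of several miRNA genes along with inflammatory genes. The best known is miR-146a, which limits the response by targeting Irak1 and Traf6, adaptors that carry the Toll-like receptor signal. A mature miRNA can outlast its primary transcript by many hours, so its level 1 h later contains both older and newly processed molecules.

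The mature sequences of the miRNAs that the comparison turned on are given first, from RefSeq on GRCm38.p6, 5′ to 3′ with the seed in capitals. The array names most of these probes without an arm, and the arm shown is the one that the older name stood for. The first 6 passed the test described below, and the last 6 are the hairpin partner of miR-125a-3p, the transcript and seed partner of miR-221, miR-376a and miR-32 with large changes that did not pass, and the seed partners of miR-32.
miR-208b-3p: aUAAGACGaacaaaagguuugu
miR-1970: uGUGUCACuggggauaggcuuug
miR-221-3p: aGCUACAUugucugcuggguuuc
miR-146a-5p: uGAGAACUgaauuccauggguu
miR-22-3p: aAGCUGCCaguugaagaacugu
miR-125a-3p: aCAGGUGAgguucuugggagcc
miR-125a-5p: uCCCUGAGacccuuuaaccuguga
miR-222-3p: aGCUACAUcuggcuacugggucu
miR-376a-3p: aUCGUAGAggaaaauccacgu
miR-32-5p: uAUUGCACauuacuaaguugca
miR-92a-3p: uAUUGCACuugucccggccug
miR-25-3p: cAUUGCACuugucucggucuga

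MiR-221 and miR-222 lie on the minus strand of chromosome X (19146307 to 19146329 and 19146901 to 19146923) and share the seed GCUACAU. MiR-1970 lies on the same strand of chromosome X at 135786174 to 135786196. MiR-208b lies on chromosome 14 (54975710 to 54975731, minus strand), within the gene of the heart and slow muscle myosin Myh7. MiR-146a lies on chromosome 11 at 43374435 to 43374456 (minus strand), and miR-22 on the same chromosome at 75463772 to 75463793 (plus strand). The arms of miR-125a come from 1 hairpin on chromosome 17, with 125a-5p at 17830817 to 17830840 and 125a-3p at 17830855 to 17830876 (plus strand). MiR-32, miR-92a and miR-25 share the seed AUUGCAC although their genes lie on chromosomes 4, 14 and 5.

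The deposited signal behaved as counts multiplied by 1 factor per sample, which set the geometric mean of 4 housekeeping mRNAs to 9390.3 in every sample, with a floor of 20. A miRNA at the floor could stand for up to 26.3 signal units in the sample with the largest factor. Depth over all probes was 365403, 320818 and 321081 counts in the 120 min samples, against 268804, 234392 and 239892 counts in the 60 min samples, so that each 120 min sample was counted more deeply than each 60 min sample. The highest of the 8 negative controls lay between 24 and 36 counts per sample. Of the 566 mouse miRNAs, 271 were at the floor in all 6 samples, where the depth allowed no difference to be seen. The macrophage identity of the line was checked against miRNAs typical of myeloid cells. MiR-223, a marker of the myeloid lineage chosen for this check after its values were seen, stood at 1207 ± 487 at 120 min and 916 ± 80.4 at 60 min (SD, n = 3 each). MiR-142-3p, which is restricted to blood cells, averaged 10701 at 120 min and 12292 at 60 min. Among markers of other cell types, miR-122 of liver, miR-451 and miR-144 of red cells, miR-1 and miR-133b of muscle and miR-137 and miR-218 of neural cells were at the floor in all 6 samples. Others on the erythroid and neural lists were above the floor in all 6, close to background. Erythroid miR-486 averaged 42.4 at 120 min and 34.4 at 60 min, neural miR-128 35.4 at 120 min and 37.4 at 60 min, and neural miR-124 26.0 at 120 min and 29.7 at 60 min. Muscle miR-208b is described below. Some markers on further lists stood well above background. Mesenchymal miR-199a-3p, with 574 ± 231 at 120 min and 520.1 ± 23.2 at 60 min, was the most abundant of these markers. Mesenchymal miR-199a-5p averaged 140 at 120 min and 123 at 60 min. Lymphoid miR-181a averaged 398 at 120 min and 346 at 60 min, and endothelial miR-126-3p 160 at 120 min and 153 at 60 min. Other members of these lists were low. Of the 5 mesenchymal probes 3 (miR-143, miR-145 and miR-214) were at the floor in all 6 samples. Only miR-181a of the 4 lymphoid probes and miR-126-3p of the 2 endothelial probes had a mean above background. Epithelial miR-200b and miR-200c were near background. Both were above the floor in every 60 min sample and, at 120 min, only in replicate 1.

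Sample-wide levels varied within each group more than between the groups. The geometric mean of the 100 most abundant mouse miRNAs, relative to the geometric mean over the 6 samples, was 1.49, 0.914 and 0.859 at 120 min, against 1.06, 1.16 and 0.698 at 60 min. Replicate 1 at 120 min was thus the highest sample and replicate 3 at 60 min the lowest. Summed mouse miRNA signal above the floor was 244094 ± 86039 at 120 min and 213753 ± 46140 at 60 min (SD, n = 3 each). The log2 difference of 0.16 gave p = 0.7 in an exact two-sided permutation test, where 3 against 3 samples cannot go below 0.1. Its sign depended on single samples, with -0.11 without replicate 1 at 120 min and -0.03 without replicate 3 at 60 min. The deposited scale fixes the geometric mean of the housekeeping mRNAs, so these levels are miRNA signal relative to those mRNAs. As the samples are bulk RNA on this scale, neither cell number nor RNA per cell can be read from them.

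The added ligation controls, read per 1000 counts of the hybridization controls, gave 529, 498 and 509.6 at 120 min, against 460.0, 487 and 384 at 60 min. These groups did not overlap. The housekeeping mRNAs gave 2008, 2828 and 3156 counts on the same measure at 120 min, against 1928, 1585 and 2351 at 60 min, and overlapped. Actb, the cytoskeletal actin among the 4 mRNAs that set the scale, had 23632, 22932 and 22830 at 120 min, against 17643, 18880 and 18109 at 60 min. It was higher in each 120 min sample, by 0.35 log2 units. Because the geometric mean of the 4 is fixed, the others moved the other way in sum, with -0.18 for B2m, 0.05 for Gapdh and -0.22 for Rpl19. The part of these differences in the miRNA results was not tested.

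**Figure D1:**
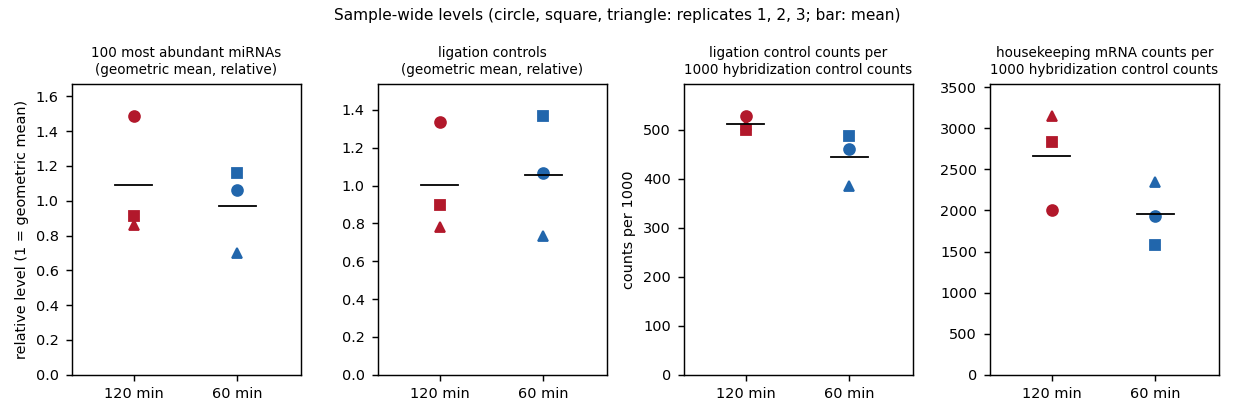
Sample-wide levels in the 120 min and 60 min samples, with circles, squares and triangles for replicates 1, 2 and 3 and bars for group means. The first and second panels show the 100 most abundant miRNAs and the ligation controls on the deposited scale, relative to the geometric mean of the 6 samples. The third and the fourth show ligation control and housekeeping mRNA counts per 1000 hybridization control counts. The highest sample for the 100 most abundant miRNAs is replicate 1 at 120 min (1.49) and the lowest replicate 3 at 60 min (0.698).

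Each miRNA was compared on log2(signal + 1) with limma, on the deposited scale and after division by the factor of the 100 most abundant mouse miRNAs, called the top-100 scale here. The test covered 162 miRNAs whose mean over the 6 samples exceeded background (31.7 signal units), and p values were adjusted over these 162 by the Benjamini-Hochberg method. On the deposited scale 1 miRNA, miR-208b, passed an adjusted p of 0.05 as higher at 120 min, which is 0.617% of those tested. MiR-208b was at the floor in every 60 min sample, so it entered the test only through its 120 min values, and its call is given as a description. None (0%) passed as lower with limma. Of the 162, 16 had an unadjusted p under 0.05 on this scale, 13 of them higher and 3 lower at 120 min. On the top-100 scale 6 miRNAs passed as higher (3.7% of those tested) and 1 as lower (0.617%), and 30 had an unadjusted p under 0.05. The 6 were miR-208b, miR-1970, miR-221, miR-466h, miR-146a and miR-22, and the 1 was miR-125a-3p.

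The scales differed in where they put the bulk of the miRNAs. On the deposited scale the median log2 change was 0.18 and 75.9% of the 162 were positive, against 0.03 and 53.7% on the top-100 scale. Under scaling to the ligation controls the median was 0.24, with 17 miRNAs higher and 3 lower. Under scaling to the hybridization controls it was 0.66, with 123 higher and 1 lower. All 6 miRNAs that passed as higher on the top-100 scale, and miR-125a-3p as lower, also passed under both of these control scalings. Under hybridization control scaling 123 of the 162 passed as higher, so passing there does not set these 6 apart. Both scalings also used the same samples in which these miRNAs were picked for passing. Their passing again is therefore a description and not support, for miR-208b as for the others.

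Fits on the 2 main scales also differed in precision. The deposited fit gave 1 common standard error of 0.39 log2 units to every miRNA, and so rests on residuals that share the sample-wide factors. Its p values were read on 648 degrees of freedom, pooled over miRNAs from the same 6 samples, which are not independent. The top-100 fit gave standard errors of 0.14 to 0.38, with 9.81 degrees of freedom. Without regard to any p value, all 3 samples at 120 min lay above all 3 at 60 min for 14 miRNAs on the deposited scale (8.64%) and 19 on the top-100 scale (11.7%). They lay below for 1 (0.617%) and 14 (8.64%).

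**Figure D2:**
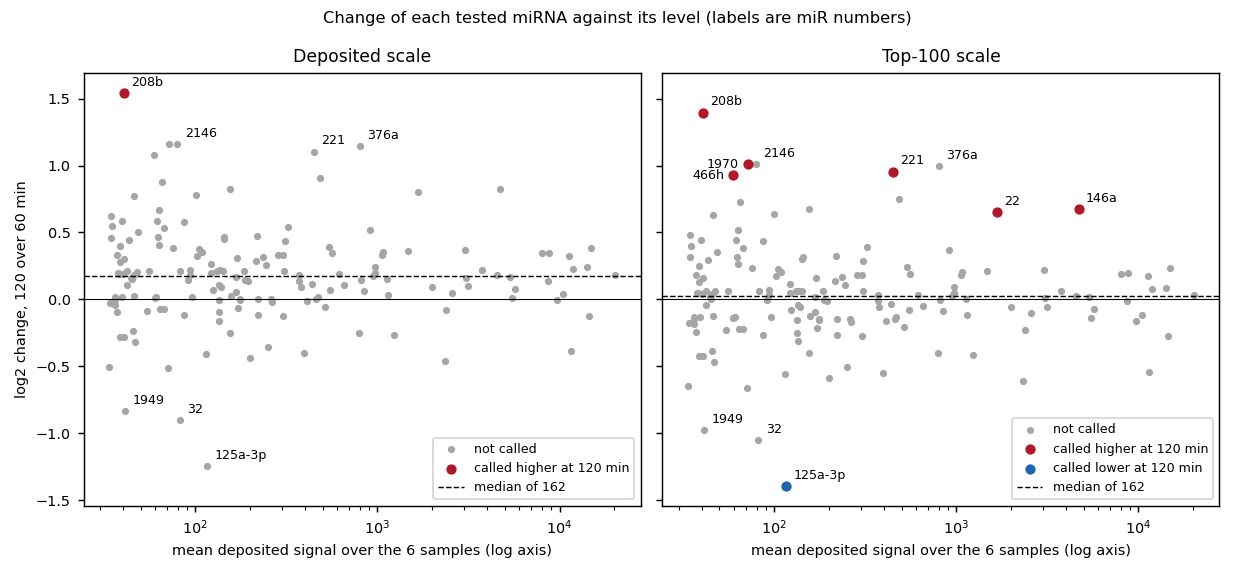
Log2 change at 120 min over 60 min of the 162 tested miRNAs (vertical axis) against their mean deposited signal over the 6 samples (horizontal, log axis), on the deposited scale at the left and the top-100 scale at the right. Red and blue points passed the test as higher or lower, and the dashed line is the median of the 162, at 0.18 on the deposited scale and 0.03 on the top-100 scale. MiR-146a and miR-22 are the abundant miRNAs among those that passed, while miR-208b, miR-1970, miR-466h and miR-125a-3p have mean signals below 120.

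MiR-146a rose on the top-100 scale. Its deposited signal was 8437, 4535 and 5163 in the 120 min samples, against 3824, 3904 and 2376 in the 60 min samples. Each 120 min sample was above each 60 min sample, although replicate 2 at 120 min exceeded the highest 60 min sample by little. After top-100 scaling the values drew together to 5665, 4961 and 6009 at 120 min and 3609, 3377 and 3405 at 60 min. The log2 change was 0.67 ± 0.15 (SE) with a limma adjusted p of 0.0367, a 1.60-fold difference. On the deposited scale it was 0.83 with an adjusted p of 0.420, or 0.65 above the median of the 162. MiR-146a held 2.00% of the mouse miRNA signal over the 6 samples, so it was among the abundant miRNAs of these cells.

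Other miRNAs known to rise in LPS-stimulated macrophages were scarce on this panel. Of the 8 listed, miR-9, miR-147, miR-155 and miR-212 were at the floor in all 6 samples. MiR-146b reached 49.3 in replicate 1 at 120 min and 31.6 in replicate 2 at 60 min and was otherwise at or near the floor, and miR-187 left the floor in 1 sample, at 60 min. Only miR-146a and miR-132 entered the test. MiR-132, made from a CREB-responsive gene that also yields miR-212, had 135, 70.2 and 57.6 at 120 min, against 63.7, 72.3 and 53.0 at 60 min. These groups overlapped, and the top-100 log2 change was 0.23 ± 0.17 (limma adjusted p = 0.535). Thus 1 of the 2 tested members passed as higher and none as lower on the top-100 scale, where 3.7% and 0.617% of all 162 passed, and neither passed on the deposited scale.

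The list of miRNAs abundant in myeloid cells had 11 probes, all of them tested. MiR-146a and miR-22 passed as higher on the top-100 scale, 2 of 11 against 3.7% of all 162, and none passed as lower. The median of the list was 0.18 on the deposited and 0.03 on the top-100 scale, equal to 2 decimals to those over all 162. MiR-22, known for repressing the DNA demethylation enzyme Tet2 in blood cells, had 3037, 1772 and 1661 at 120 min, against 1337, 1253 and 1002 at 60 min. The groups did not overlap. Its top-100 log2 change was 0.65 ± 0.15 (limma adjusted p = 0.0420, 1.57-fold), and its deposited change of 0.80 gave an adjusted p of 0.438.

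Both arms of miR-142 lay on the other side of 0 without passing. MiR-142-3p had 17664, 10149 and 4290.5 at 120 min, against 13884, 14319 and 8673 at 60 min, and replicate 3 at 120 min was by far its lowest sample. On the top-100 scale it had 11861, 11104 and 4993 at 120 min, against 13104, 12384 and 12429 at 60 min. All 120 min values were then the lower ones, but the log2 change of -0.54 ± 0.29 had a limma adjusted p of 0.367. For miR-142-5p, which was chosen after its values were seen, the top-100 change was -0.56 ± 0.16 (adjusted p = 0.0991). MiR-16, a brake on cyclin genes, and miR-27a of the miR-23/27/24 cluster had top-100 changes of 0.17 and -0.14, with overlapping groups. MiR-21, an abundant regulator of inflammation that is also named outside the rule, had 475 ± 203 at 120 min and 463 ± 169 at 60 min (SD, n = 3 each).

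MiR-221 rose on the top-100 scale. Its signal was 808, 498 and 516 at 120 min, against 375, 337 and 164 at 60 min, without overlap. After top-100 scaling it had 542, 545 and 600.1 at 120 min, against 354, 291 and 236 at 60 min. The 120 min samples then lay close together and well above each 60 min sample. The top-100 log2 change was 0.95 ± 0.17 (SE, limma adjusted p = 0.0159), a 1.94-fold difference. The deposited change of 1.10 gave an adjusted p of 0.119 and was 0.93 above the median of all tested.

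MiR-222 comes from the same primary transcript as miR-221, and the pair is known for targeting the cell cycle inhibitor Cdkn1b. It was measured near background, with 53.7, 44.7 and 42.7 at 120 min, against 34.5, 42.1 and 20 (the floor) at 60 min. The deposited groups did not overlap, while on the top-100 scale they did. Its top-100 log2 change was 0.44 ± 0.17 (limma adjusted p = 0.218), and the deposited change was 0.59. The difference between the changes of miR-221 and miR-222 was not tested.

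**Figure D3:**
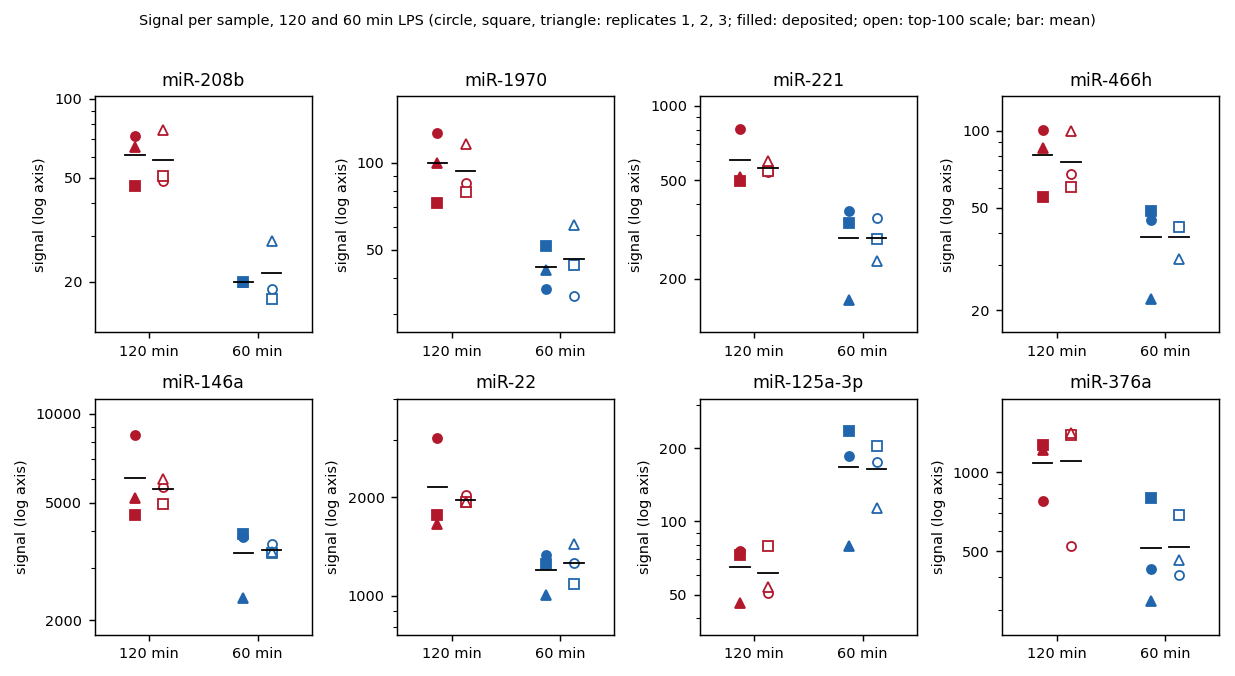
Signal of the 7 miRNAs that passed on the top-100 scale and of miR-376a, which did not, in the 120 min (red) and 60 min (blue) samples on log axes. Circles, squares and triangles are replicates 1, 2 and 3, filled symbols the deposited signal, open symbols the top-100 scaled signal and bars the group means. MiR-208b was at the floor of 20 in every 60 min sample, so its open symbols there show only the sample factors, and miR-376a is the one whose groups overlap.

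MiR-208b was above the floor in every 120 min sample and at the floor in every 60 min sample. It had 72.3, 46.2 and 65.1 at 120 min, against 20, 20 and 20 at 60 min. Each 120 min value exceeded the highest negative control of its own sample, which stood at 36.2, 19.1 and 21.0 signal units. The fitted log2 changes were 1.54 (limma adjusted p = 0.0118) on the deposited scale and 1.40 ± 0.23 (adjusted p = 0.0159) on the top-100 scale. These p values do not stand as support, because a miRNA floored at 60 min could enter the test only by being high at 120 min. The sizes depend on the floor, and on the top-100 scale the 60 min values hold only the sample factors. Against the most that the floor could hide in each 60 min sample, miR-208b was at least 2.71-fold higher on the deposited scale and at least 2.44-fold higher on the top-100 scale. With every sample given the highest of the sample floors, the log2 changes were 1.16 (adjusted p = 0.0832) and 1.02 (adjusted p = 0.0365).

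As miR-208b is a muscle miRNA, the other 6 muscle markers on the panel were read beside it. MiR-208a, its cardiac relative from the Myh6 gene, was at the floor in all 6 samples, as were miR-1, miR-133b and miR-499. MiR-133a had 26.3, 20 and 29.2 at 120 min, against 20, 31.6 and 20 at 60 min, and miR-206 left the floor only in replicate 1 at 120 min, with 24.1. Across the 35 probes for markers of other cell types, 16 were at the floor in all 6 samples, 7 were tested, and miR-208b alone passed. Of all 162, 0.617% passed as higher on the deposited scale, which is miR-208b itself, and 3.7% on the top-100 scale. MiR-208b was tested only through its 120 min values, so its share of the 7 cannot be weighed against these. The summed signal of the 35 probes above the floor was 2275, 1130 and 1206 at 120 min, against 1490.2, 1493 and 1140.3 at 60 min, and the groups overlapped. The median top-100 change of the 7 was -0.02.

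Leaving the floor in this way was seen for 8 of the 566 mouse miRNAs (1.41%), and 1 (0.177%), miR-1958, did the opposite. Besides miR-208b the 8 were miR-130a, miR-1935, miR-292-5p, miR-293, miR-546, miR-706 and miR-743b-3p. These others were named for leaving the floor, after their values were seen, and none reached the mean needed for the test. The highest of them was miR-546, with 48.2, 31.1 and 42.7 at 120 min. MiR-1958 had 37.6, 31.6 and 28.3 at 60 min. Among the 33 probes for miRNAs of mouse herpesviruses, which these cells are not described as carrying, 1 (3.03%) left the floor at 120 min and none (0%) returned to it. That probe, mghv-miR-M1-7-5p, had 51.5, 30.3 and 44.9 at 120 min. The 120 min samples were also the more deeply counted, and the part of depth in the floor counts was not tested.

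MiR-1970 rose on the top-100 scale, with a deposited signal of 127, 72.6 and 99.5 at 120 min, against 36.6, 51.3 and 42.4 at 60 min. The groups did not overlap, but the 60 min values were close to the highest negative controls of those samples (37.6, 39.4 and 29.2). Its top-100 log2 change was 1.01 ± 0.23 (SE, limma adjusted p = 0.0367, 2.01-fold), and the deposited change of 1.16 gave an adjusted p of 0.1003. MiR-2146 had a pattern of the same size, with 131, 69.4 and 131.7 at 120 min, against 43.9, 65.7 and 36.2 at 60 min. Its groups did not overlap either. The top-100 change of 1.01 ± 0.25 missed the threshold at an adjusted p of 0.0517.

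MiR-466h belongs to the miRNA repeats in an intron of Sfmbt2, a large family that includes many near-identical members. It rose on the top-100 scale, with 100.8, 55.0 and 85.3 at 120 min, against 44.9, 48.6 and 22.1 at 60 min. The 120 min samples were all higher, although 48.6 and 55.0 are close for a signal near background. The top-100 log2 change was 0.93 ± 0.21 (SE, limma adjusted p = 0.0367, 1.90-fold) and the deposited change 1.07 (adjusted p = 0.128).

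No other miRNA of that cluster passed. The list drawn up for it had 31 probes, of which 11 were at the floor in all 6 samples and 17 were tested. On the top-100 scale 1 passed as higher (miR-466h) and none as lower, and on the deposited scale none was called. This 1 of 17 is close to the 3.7% of all 162 that passed as higher. RefSeq places the tested members miR-466k on chromosome 3 and miR-467f on chromosome 11, so the list also holds miRNAs from outside the cluster. The median change of the list was 0.07 on the deposited and -0.08 on the top-100 scale, against 0.18 and 0.03 over all 162. Its brightest member, miR-669f, had 3213 ± 1162 at 120 min and 3107 ± 1302 at 60 min (SD, n = 3 each). The probe shared by miR-466a-3p and miR-466b-3-3p had 2396 ± 1165 at 120 min and 2393 ± 511 at 60 min. Members of this cluster differ by few bases, so the counts of single probes are uncertain.

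MiR-125a-3p was the only miRNA that passed as lower at 120 min, on the top-100 scale. Its signal was 75.6, 72.6 and 46.4 at 120 min, against 186, 235 and 79.6 at 60 min, without overlap. Replicate 3 was the lowest sample in each group. On the top-100 scale it had 50.8, 79.4 and 54.0 at 120 min, against 175, 204 and 114 at 60 min. The top-100 log2 change was -1.39 ± 0.24 (SE, limma adjusted p = 0.0159), which leaves 0.381 of the 60 min level. The deposited change of -1.25 had an adjusted p of 0.1003.

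The partner arm miR-125a-5p, the abundant product of the hairpin and a regulator of the macrophage response through A20 (Tnfaip3), did not pass in either direction. It had 2409, 1371 and 1280.5 at 120 min, against 1325, 1419.8 and 1061 at 60 min, and the groups overlapped. Its top-100 log2 change was 0.21 ± 0.15 (limma adjusted p = 0.535). MiR-125b-5p, which shares its seed CCCUGAG, had a log2 change of 0.21 ± 0.15 as well (adjusted p = 0.535). The list of miR-99/100 and miR-125 members had 7 probes and 6 tested, of which 1 passed as lower and none as higher on the top-100 scale, against 0.617% lower and 3.7% higher over all 162. Its median was 0.21, against 0.03 over all tested. MiR-99b, from the same cluster as miR-125a, had 249.8 ± 44.8 at 120 min and 185 ± 59.4 at 60 min (SD, n = 3 each) without passing.

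MiR-32 had the next lowest change after miR-125a-3p and did not pass. It had 106, 64.6 and 20 (the floor) at 120 min, against 118, 112 and 70.7 at 60 min. The deposited groups overlapped, and replicate 3 at 120 min alone was at the floor. On the top-100 scale the groups did not overlap, with 71.4, 70.7 and 23.3 (from the floor) at 120 min, against 111, 96.6 and 101 at 60 min. The top-100 log2 change was -1.05 ± 0.36 (limma adjusted p = 0.172). MiR-92a and miR-25 share the seed of miR-32 and are known, like it, for repressing the death factor Bim (Bcl2l11). MiR-92a, chosen after its values were seen, had 64.7, 45.4 and 61.4 at 120 min, against 36.6, 47.3 and 20 (the floor) at 60 min, with a top-100 change of 0.63 ± 0.21 (adjusted p = 0.163). MiR-25, the brightest of the 3, had a change of 0.02 ± 0.15 (adjusted p = 0.974). One seed thus covered changes of -1.05, 0.02 and 0.63, none of which passed.

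Other low changes on the top-100 scale were miR-1949 with -0.98, miR-2135 with -0.66 and miR-1940 with -0.65 (limma adjusted p = 0.194, 0.187 and 0.0674). All 3 had deposited group means under 90 and overlapping deposited groups. On the top-100 scale all 3 had each 120 min sample below each 60 min sample, which held for 14 of the 162 tested (8.64%). The order of miR-1949 there rests on a floor value, 28.7 after scaling, in replicate 3 at 60 min. Its top-100 values at 120 min were 23.5, 22.7 and 23.5, so a lower hidden signal could make the groups overlap. For miR-1949 the difference lay mostly in replicate 2 at 60 min, which had 112 against 38.6 and 20 (the floor) in the other 60 min samples. Its deposited values at 120 min were 35.1, 20.7 and 20.2.

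MiR-376a, from the imprinted Dlk1-Dio3 region of chromosome 12, had one of the largest log2 changes among the miRNAs that did not pass. It had 779, 1269 and 1219.9 at 120 min, against 429, 797 and 324 at 60 min. Replicate 1 at 120 min lay just below replicate 2 at 60 min, so the groups overlapped. The log2 change was 1.15 on the deposited scale (limma adjusted p = 0.1003) and 1.00 ± 0.36 on the top-100 scale (adjusted p = 0.187). At 120 min, replicate 1 had the highest overall miRNA level and the lowest miR-376a. Of the 52 probes for that region, 31 were at the floor in all 6 samples and 3 were tested. The other tested members, miR-136 and miR-539, had top-100 changes of -0.17 and 0.05. MiR-760, named outside the rule, had 531, 635 and 703 at 120 min, against 275, 492 and 267 at 60 min. Its deposited groups did not overlap, while on the top-100 scale they did. The deposited change of miR-760 was 0.90 (limma adjusted p = 0.3596) and the top-100 change 0.75 ± 0.30 (adjusted p = 0.218).

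None of the 5 most abundant miRNAs passed on either scale, and the groups overlapped for each of them. The miR-20a/miR-20b probe, for products of a polycistron that promotes proliferation (miR-17~92) and of its paralog, had 22024 ± 9500.4 at 120 min and 18408 ± 1968 at 60 min (SD, n = 3 each). The values of let-7a were 16696 ± 3921 at 120 min and 12954 ± 3615 at 60 min. MiR-720, which is now regarded as a fragment of a transfer RNA, had 13952 ± 4302 at 120 min and 15097 ± 3881 at 60 min. Let-7g had 15605 ± 5464 at 120 min and 12849 ± 1998 at 60 min. The miR-106a/miR-17 probe had 12909 ± 4619 at 120 min and 10769.7 ± 2158 at 60 min.

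The let-7 family, which promotes differentiation and shares the seed GAGGUAG with miR-98, had 9 probes, all tested and none called. All 9 changes were positive on both scales, from 0.16 to 0.38 on the deposited and from 0.01 to 0.23 on the top-100 scale. The medians were 0.24 and 0.09, against 0.18 and 0.03 over all 162, where 75.9% and 53.7% were positive. Members of the family differ by few bases and can share probes in part.

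The miR-17~92 list had 9 tested probes of 11 and no call, with a median of 0.17 on the deposited and 0.02 on the top-100 scale. The miR-15/16 family, which restrains the cell cycle, had 4 tested members of 6, no call, and medians of 0.11 and -0.04. In the miR-23/27/24 clusters all 5 probes were tested and none passed, with medians of 0.17 and 0.02. The 5 miR-30 probes gave 0.18 and 0.03, again with none called. Each of these 4 lists had medians within 0.1 of those over all 162 tested, on both scales.

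The miR-29 family, known for repressing collagen and other matrix genes, had negative top-100 changes for its 3 members, of which none passed. MiR-29b had 2011 ± 1051 at 120 min and 2664 ± 1084 at 60 min (SD, n = 3 each), with a top-100 change of -0.61 ± 0.27 (limma adjusted p = 0.266). For miR-29a and miR-29c it was -0.06 and -0.15. On the deposited scale the same 3 had -0.46, 0.09 and 0.002, so the signs for miR-29a and miR-29c depended on the scale. MiR-103 and miR-107, products of the pantothenate kinase genes, had top-100 changes of 0.37 and 0.18, and miR-425 and miR-191, which share the host gene Dalrd3, had 0.39 and 0.18. For miR-101a and miR-101b the values were 0.04 and 0.05. None of these 6 passed.

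**Figure D4:**
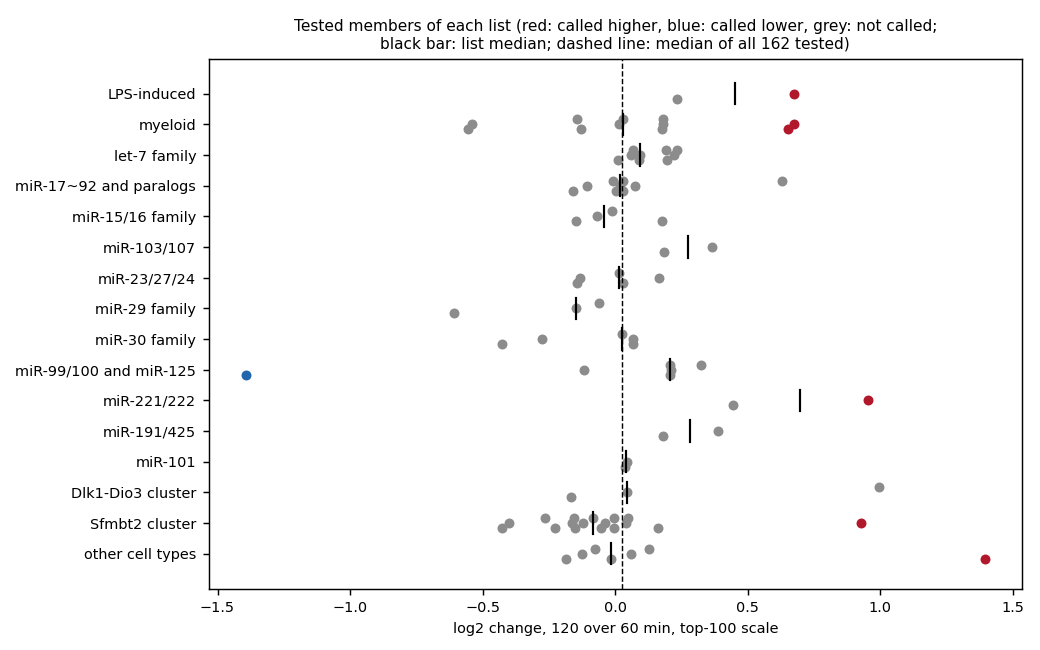
Top-100 log2 change at 120 min over 60 min (horizontal axis) of the tested members of each list (rows). Red points passed the test as higher, blue as lower and grey points did not pass, black bars are list medians and the dashed line is the median of the 162 tested (0.03). In the miR-99/100 and miR-125 row the blue point, miR-125a-3p, lies at -1.39 while the list median is 0.21. All 9 let-7 points lie above 0, and none passed.

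The calls rested on few samples, and 1 sample decided all of them on the top-100 scale. Without replicate 3 at 120 min none of the 162 passed with limma as higher or lower, although 17 had an unadjusted p under 0.05. The changes themselves kept their direction in that fit, with 1.19 for miR-208b, 0.91 for miR-221, -1.32 for miR-125a-3p, 0.85 for miR-1970, 0.72 for miR-466h, 0.61 for miR-146a and 0.67 for miR-22. For each of these miRNAs the groups did not overlap, so leaving out 1 sample could not reverse the direction. Without replicate 1 at 60 min, 2 passed as higher (miR-208b and miR-221) and miR-125a-3p as lower.

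MiR-221 and miR-125a-3p passed on the top-100 scale in each of the 5 other fits that left out 1 sample. MiR-208b passed in the same fits, but it entered the test only through its 120 min values, so its passing is a description and not support. MiR-1970 and miR-466h passed in 3 of the 6 such fits. MiR-146a passed only without replicate 2 at 120 min, and miR-22 only without replicate 3 at 60 min. Their top-100 changes stayed between 0.61 and 0.75 and between 0.55 and 0.75 over the 6 fits. On the deposited scale miR-208b passed in 3 of the 6 fits, likewise as a description, and its change ran from 1.41 to 1.73. When both replicate 1 at 120 min and replicate 3 at 60 min, the samples with the most extreme overall miRNA level, were left out together, none passed as higher or lower with limma on either scale, with 42 of the 162 under an unadjusted p of 0.05 on the top-100 scale and 61 on the deposited scale.

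**Figure D5:**
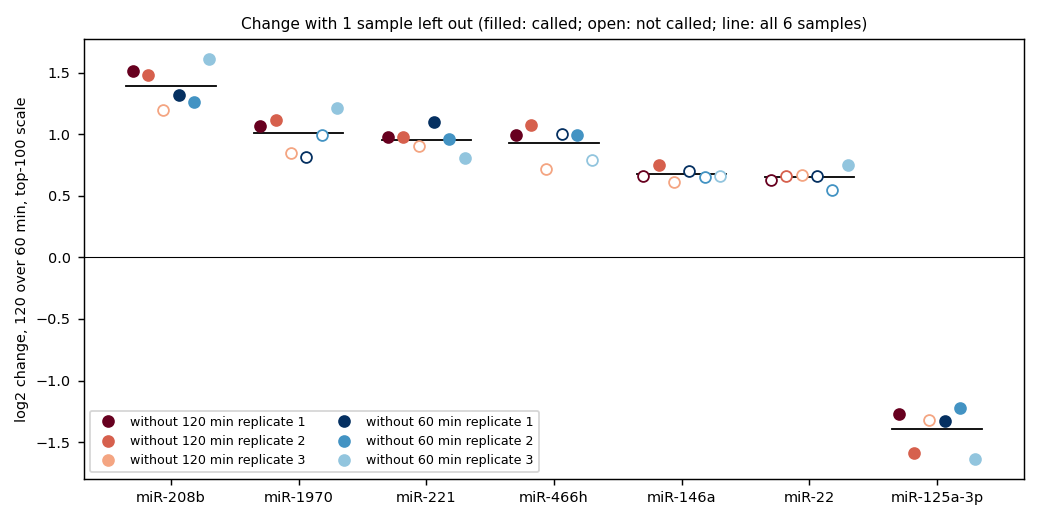
Top-100 log2 change at 120 min over 60 min (vertical axis) of the 7 miRNAs that passed with all 6 samples (horizontal axis), refitted with 1 sample left out. Each symbol is 1 fit, coloured by the sample left out, filled where the miRNA passed and open where it did not, and the line is the value with all 6 samples. The open symbols for the fit without replicate 3 at 120 min appear for all 7. No symbol changes sign, which could not occur because the groups of all 7 did not overlap.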

How the data were processed

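Total RNA of the 6 samples was assayed on a NanoString nCounter panel, and the deposited table holds 1 signal value per probe and sample. No source used here gives the normalization. In the deposited signal every value between the floor of 20 and 2000 equalled a whole number of sample-specific steps (0.748 to 1.31 signal units, 100% of values to within 0.1 step), and positive and negative hybridization controls held whole numbers without that factor. Depth was read as signal above the floor divided by the step, 234392 to 365403 per sample. Since the floor hides low values, no count model was used.

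Background was set 2 SD above the mean of the 8 negative controls, brought to the deposited scale by each sample's step and averaged over the 6 samples (31.7). Of 566 mouse miRNAs 162 exceeded it and 404 were left out. On log2(signal + 1), limma 3.58.1 in R 4.3.3 (lmFit, eBayes, two-sided) compared 120 with 60 min. Each miRNA had 4 residual degrees of freedom, and eBayes, which pools over miRNAs, used 648 on the deposited and 9.81 on the top-100 scale. Benjamini-Hochberg adjustment was over the 162, with a threshold of 0.05. The top-100 scale divided each sample by the geometric mean of the 100 mouse miRNAs with the highest mean. Fold changes of low miRNAs are understated by the pseudocount. The script was tested on simulated data.

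Named were the called miRNAs (up to 15 each way), where fewer than 10 were called the 5 highest and 5 lowest changes with an unadjusted p under 0.05, the 5 most abundant, tested LPS-induced miRNAs and up to 4 tested members of each other list. The compared samples, the miRNA lists and this rule were chosen with earlier results of these data known. RefSeq sequences matched 110 of the 162 tested miRNAs. Same-numbered replicates were checked as pairs, as given under the dependence on processing. Alternatives were other filters, pseudocounts, floors, scalings and variance models, the 30 min samples in the fit, a replicate block and leaving out samples.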

Additional observations from a re-analysis of the deposited data

Results flagged for a closer look

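A viral probe stood above background in samples not described as infected. The probe mcmv-miR-m88-1, for a miRNA of mouse cytomegalovirus, had a mean signal of 36.63 over the 6 samples, above the background of 31.7. It had 48.2, 38.3 and 44.9 at 120 min, against 30.3, 38.1 and 20 (the floor) at 60 min. It was the only 1 of the 33 herpesvirus probes with a mean above background, and 22 of the 33 were at the floor in all 6 samples. The highest negative control of a sample reached 39.4 signal units. No sample without LPS was used here, so this level has no unstimulated counterpart.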

How the results depend on the processing

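With a replicate block for the shared replicate numbers, 6 miRNAs passed as higher and 1 as lower on the deposited scale, and 12 and 6 on the top-100 scale. All 7 miRNAs that passed on the top-100 scale also passed there with the block, miR-208b again as a description only. The deviations of same-numbered samples correlated at 0.24, 0.21 and 0.06 over the 162 miRNAs, and those of other pairs at -0.35 to 0.19. Of the 6 samples, 4 correlated best with their own number. These values do not settle whether the numbers mark pairs, which the series does not state. The main fits used no block, and the calls depend on that choice.

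On the deposited scale (1 higher, 0 lower) none passed as higher without a filter, with a mean above 50, with only miRNAs above the floor in all 6 samples, or with a common floor, where 11, 13, 12 and 14 had an unadjusted p under 0.05. MiR-208b itself is left out by the filters on a mean above 50 and on the floor. With the 30, 60 and 120 min samples in 1 fit, 6 passed as higher and 1 as lower. Scaling to the ligation controls gave 17 and 3, and to the hybridization controls 123 and 1. Leaving out 1 sample gave 0 to 2 higher and 0 to 2 lower. On the top-100 scale (6 higher, 1 lower) 1 passed as higher without a filter and 2 with scaling to the 50 most abundant, and the fit with 30 min samples gave 2 lower. Leaving out 1 sample gave 0 to 8 higher and 0 to 2 lower. Leaving out both replicate 1 at 120 min and replicate 3 at 60 min, chosen after seeing the data, gave 0 in each direction on both scales. The summed signal difference ran from -0.11 to 0.32 with 1 sample left out, reversing at -0.11 without replicate 1 at 120 min and at -0.03 without replicate 3 at 60 min. Apart from fewer samples or more miRNAs tested, the causes were not tested. For the 13 named miRNAs that were called or had the most extreme changes, 339 alternative values kept their side of the threshold, 49 passed where the reported one did not, 42 no longer passed and 0 changed sign. These 13 were picked for large changes in the same samples, and miR-208b was at the floor in every 60 min sample. Their lack of sign changes is therefore a description and not support. The other 49 named miRNAs did not pass as reported. Of their 827 alternative values on the deposited scale 44 passed, 43 of them under hybridization control scaling, and 104 had the opposite sign, in 44 of the miRNAs. On the top-100 scale 1 passed and 55 had the opposite sign, in 18. With 3 samples per time, a floor of 20 and negative controls up to 36 counts, changes of miRNAs near the floor were not resolved.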

Other observations

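The share of G and C in the mature sequence had a weak positive correlation with the top-100 change. Over the 110 tested miRNAs with a RefSeq sequence, Pearson's r was 0.18 and Spearman's rho 0.34 across miRNAs, which share the same 6 samples and are not independent replicates. The median top-100 change was -0.13 for the 26 miRNAs with up to 40% G and C, 0.03 for 56 miRNAs with over 40 to 50%, and 0.11 for 28 miRNAs with over 50%. Replicate 3 at 120 min, without which no miRNA passed on the top-100 scale, had deviations from its group mean that ran the same way, with r = 0.23 and rho = 0.30 over the same 110. Its median deviation was 0.18 in the miRNAs with over 50% G and C and -0.05 in those with up to 40%. For the other 5 samples r lay between -0.17 and 0.07 and rho between -0.20 and 0.06. Deviations from a group mean sum to 0, so the negative values of replicates 1 and 2 at 120 min follow in part from replicate 3. MiR-32, at -1.05, and miR-29b, at -0.61, are among the low changes, while miR-125a-3p, which passed as lower, holds 59.1% G and C and miR-208b, with the highest change of 1.40, holds 31.8%.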
